A study of Arabidopsis thaliana with 24 samples.

Results

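The comparison described here set shoots of Arabidopsis thaliana after 1 h in salicylhydroxamic acid (SHAM) against shoots after 1 h in water. It used 6 of the 24 libraries of the study, 3 of SHAM and 3 of water, chosen by their labelled organ, treatment and time, and every gene of the count table. All groups were wild-type Col-0 seedlings that were 7 days old, and each library came from a pool of 30 to 50 seedlings, grown at 21 °C with 16 h of light and 8 h of dark on medium with 1% sucrose. The treatment label gives 1 mM SHAM, while the protocol text names 0.1 mM SHAM and also a mixture of 30% polyethylene glycol with 1 mM SHAM, so the labels do not settle the dose or whether polyethylene glycol was present, and SHAM names the treatment in the sense of the sample labels. Water was sampled only at 1 h. The shoots after 2 h and 3 h of SHAM and the roots after 1 h of SHAM or water were used only to set the 1 h shoot values in context. The sources used here do not say at what clock time, or in what light, the seedlings were harvested.

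SHAM is the hydroxamic acid of salicylate. It blocks the alternative oxidase, a mitochondrial enzyme that passes electrons from ubiquinol straight to oxygen, and it also acts on lipoxygenases, which start jasmonate synthesis, and on peroxidases. Salicylate itself is a defence hormone: its receptor and coactivator NPR1 works with TGA transcription factors, and TGA factors also switch on genes that detoxify foreign chemicals by oxidation, glucosylation and conjugation to glutathione. In shoots much of the messenger RNA serves photosynthesis, and many of those genes follow light and the circadian clock, which runs on proteins that peak in the morning and in the evening and repress each other.

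Counts came from the 3' ends of transcripts. The SHAM libraries held 885920, 1912475 and 2196537 counts and the water libraries 1348319, 1551009 and 3622300 counts, with 13091 to 13943 genes detected in SHAM and 13540 to 14577 in water. Levels are given as CPM, counts scaled to a common library total. Fold changes are on the log2 scale, SHAM over water, with their standard error after ±, after TMM scaling, which sets libraries by the bulk of their genes. Of 16183 genes in the table, 8570 had enough counts to be tested with edgeR's quasi-likelihood test, and a gene is called where its Benjamini-Hochberg adjusted p is under 0.05. The libraries carried the transcripts of green tissue, with 39.68 to 41.08% of counts from photosynthesis genes in SHAM and 31.92 to 35.44% in water. Of 18 root markers 5 (PRP1, COBL9, RHS13, LRX1, HRGP1) had 0 counts in all 6 libraries, and the 18 together took 0.0254 to 0.0494% of counts in SHAM and 0.0303 to 0.0325% in water. Of the 5 root markers tested, edgeR called 0, with 1 at an unadjusted p under 0.05 and 0 called by DESeq2. Markers of guard cells took 0.0491 to 0.0918% of counts in SHAM and 0.0508 to 0.05695% in water. Of 5 guard cell markers tested, edgeR called 1, SPCH (AT5G53210), lower in SHAM (adjusted p = 0.0394). Its call was lost in 5 of the 6 fits that left out 1 library. Markers of the vasculature, of which 2 of 4 were tested, took 0.00835 to 0.0171% in SHAM and 0.0261 to 0.0345% in water. The phloem lectin PP2-A1 was lower in SHAM (-1.36 ± 0.23, adjusted p = 0.00105). The part of these shares in the results was not tested. SHAM replicate 3 stood apart, with 0.419% of its counts from genes of the chloroplast and mitochondrial genomes, against 1.46 and 1.65% in the other SHAM libraries and 1.304 to 1.61% in water. Without these genes the count of calls was 1449 and, without SHAM replicate 3, also 1449, against 1443 with all. Of those 1443 calls, 1439 were kept without these genes and 1134 without SHAM replicate 3.

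After 1 h the SHAM shoots held more transcript of genes that answer salicylate, of enzymes that detoxify foreign chemicals, and of a few light-harvesting antenna genes, and less of several genes of the clock and of a few dark-induced genes. Of the 8570 genes tested, 1443 were called (16.8%), 801 higher (9.35%) and 642 lower (7.49%), and 1160 of them differed at least 2-fold. Large changes were more often increases: 100 of the genes higher in SHAM differed at least 8-fold, and 19 of those lower in SHAM. The 3 SHAM and the 3 water libraries did not overlap in level for 93.4% of the called genes, against 34% of all tested genes. The median gene stood at 0.04 on the log2 scale, so the fold changes below are read against a value close to 0. Scaled by library size alone, the median gene stood at -0.20 and the call was 542 higher and 991 lower. Without SHAM replicate 2 the count was 918, and without water replicate 2 it was 897. P values here measure the spread between pools of seedlings, and in whole shoots fewer cells of a type and less RNA per cell cannot be told apart.

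**Figure D1:**
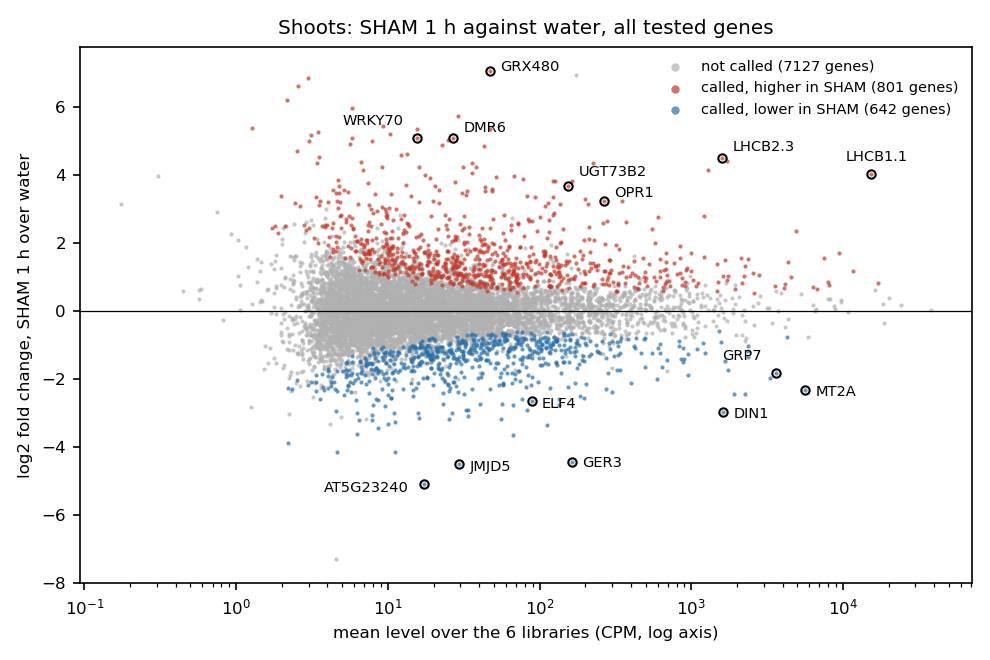
Each point is 1 of the 8570 genes tested in shoots, placed by its mean level over the 6 libraries (CPM, log axis) and its log2 fold change, SHAM 1 h over water. The 801 genes called higher reach a log2 fold change of 7.06 at GRX480, and the antenna genes LHCB2.3 and LHCB1.1 stand apart at the abundant end.

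Genes of the salicylate response had some of the largest increases. GRX480 (AT1G28480), a glutaredoxin that binds TGA factors, stood at 117, 81.6 and 80.1 CPM in SHAM shoots, against 1.48, 0.645 and 0.552 CPM in water shoots. All 3 SHAM libraries lay far above all 3 water libraries, and the gene rose by 7.06 ± 0.45 on the log2 scale (adjusted p = 1.25e-06). NIMIN2 (AT3G25882), which binds NPR1, stood at 91.4, 76.9 and 32.8 CPM in SHAM, against 4.45, 3.87 and 5.52 CPM in water (4.06 ± 0.49, adjusted p = 7.89e-05). NPR1 (AT1G64280) itself stood at 13.5, 20.9 and 20.03 CPM in SHAM, against 6.67, 5.80 and 7.18 CPM in water, a smaller rise without overlap (1.73 ± 0.32, adjusted p = 0.00206). The list of salicylate response genes had 7 of 9 tested members higher, with a median of 4.06, or 3.58 with the 3 genes of 3 counts or fewer in water set to their bound or ratio, against 0.04 over all tested genes. The list held 16 members. Those low in water, such as GRX480, had enough counts to be tested only through the SHAM libraries. The count and the median are thus no independent support. The 2 members that did not pass were the pathogenesis-related gene PR5 (AT1G75040) (1.02 ± 0.43, adjusted p = 0.12) and WRKY18 (AT4G31800) (1.01 ± 0.71, adjusted p = 0.37).

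The WRKY transcription factors of group III, several of which act for or against salicylate defences, were higher in 4 of 4 tested members, with a median of 4.86. The list held 13 members, of which 6 were in the count table. The 4 tested were low in water and had enough counts to be tested only through the SHAM libraries. Their count is thus no independent support. WRKY53 (AT4G23810), a factor of leaf senescence and defence, stood at 62.1, 75.3 and 67.8 CPM in SHAM and 2.23, 3.87 and 4.97 CPM in water (4.37 ± 0.36, adjusted p = 3.27e-06). WRKY54 (AT2G40750) stood at 24.8, 26.7 and 25.5 CPM in SHAM and 0, 1.93 and 1.38 CPM in water (4.62 ± 0.40, adjusted p = 5.05e-06). The libraries of each group lay close together for both genes. WRKY70 (AT3G56400), a partner of WRKY54, was uneven in SHAM, at 55.3, 26.7 and 8.19 CPM, but each value lay above the 1.48, 1.29 and 0.552 CPM of water (5.11 ± 0.83, adjusted p = 0.000758). WRKY38 (AT5G22570) was detected in 1 water library only, and its summed level in SHAM was 35.9 times that in water, with a 95% counting interval of 9.48 to 304. The WRKY factors of groups I and II had 2 of 11 tested members higher and 1 lower. Over all tested genes 9.35% were higher and 7.49% lower. WRKY40 (AT1G80840) rose (2.57 ± 0.36, adjusted p = 0.000241), as did WRKY6 (AT1G62300) (2.01 ± 0.25, adjusted p = 0.000105). WRKY45 (AT3G01970) fell by 1.36 ± 0.34 (adjusted p = 0.0147), a call lost without water replicate 2 (adjusted p = 0.0547) or SHAM replicate 2 (adjusted p = 0.0704).

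Genes that make or remove salicylate moved too, with 4 of 5 tested members higher and a median of 1.84. DMR6 and UGT76B1, which stood out most, remove the hormone. DMR6 (AT5G24530), a dioxygenase that hydroxylates salicylate, stood at 70.0, 49.7 and 36.0 CPM in SHAM and 2.23, 2.58 and 1.104 CPM in water (5.08 ± 0.43, adjusted p = 3.87e-06). UGT76B1 (AT3G11340), which glucosylates salicylate and related immune signals, had 29 counts over the SHAM libraries and 0 over the water libraries, so it was at least 12.6-fold higher, taking 3 counts over the group as the floor. UGT74F2 (AT2G43820), which makes the glucose ester of salicylate, stood at 159, 294 and 377 CPM in SHAM and 79.4, 91.6 and 114 CPM in water (1.78 ± 0.26, adjusted p = 0.000301). CBP60G (AT5G26920), a transcription factor that switches on salicylate synthesis, stood at 6.77, 7.32 and 5.46 CPM in SHAM and 2.97, 1.29 and 2.21 CPM in water (1.84 ± 0.38, adjusted p = 0.00424). The groups did not overlap for any of these 4 genes, although in a fit of all 24 libraries CBP60G had an adjusted p of 0.0518, and in a fit of the 6 libraries alone 2 members of the list were called. EDS5 (AT4G39030), the plastid exporter of the salicylate precursor, had a log2 fold change of 1.44 ± 0.48 (adjusted p = 0.055).

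Further genes among the largest increases are less well known. AT5G03350, a legume lectin family protein, stood at 106, 75.8 and 93.8 CPM in SHAM and 4.45, 2.58 and 1.66 CPM in water (5.38 ± 0.40, adjusted p = 2.26e-06). LHT7 (AT4G35180), named for amino acid transporters of the lysine and histidine type, stood at 26.0, 35.6 and 30.5 CPM in SHAM and 0, 0 and 1.66 CPM in water (5.37 ± 0.57, adjusted p = 2.57e-05). For both genes the lowest SHAM value lay far above the highest water value, but they were picked among genes without overlap. AT4G15670, a thioredoxin superfamily gene that belongs to a cluster of close copies and so may share reads with them, stood at 19.2, 20.4 and 20.5 CPM in SHAM and 0.742, 0 and 0.828 CPM in water (5.21 ± 0.60, adjusted p = 5.16e-05).

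Called increases were frequent among enzymes that detoxify foreign chemicals. The list of glucosyltransferases induced by small phenolic compounds had 8 of 9 tested members higher and 1 lower, with a median of 3.38. It was chosen with earlier results of these data known, so this count is no independent support. HYR1, a glucosyltransferase outside the list, was among the largest decreases. UGT73B2 (AT4G34135), which glucosylates flavonols, stood at 183, 289 and 379 CPM in SHAM and 26.7, 21.9 and 29.8 CPM in water (3.67 ± 0.28, adjusted p = 2.76e-06). UGT75B1 (AT1G05560), which glucosylates aminobenzoate, stood at 134, 221 and 327 CPM in SHAM and 17.8, 16.1 and 22.1 CPM in water (3.83 ± 0.31, adjusted p = 3.27e-06). The SHAM values of both genes spread more than the water values, and all of them lay well above water. UGT73B5 (AT2G15480) (3.53 ± 0.31, adjusted p = 5.05e-06) and UGT73B3 (AT4G34131) (3.38 ± 0.33, adjusted p = 1.45e-05) rose as well, although reads of the UGT73B genes may be shared between close relatives. The member that went the other way was UGT73C6 (AT2G36790), at 3.39, 2.61 and 2.73 CPM in SHAM and 11.1, 9.03 and 11.3 CPM in water, and it fell by 1.63 ± 0.36 (adjusted p = 0.0058).

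The electrophile response genes, whose products reduce or oxidise reactive carbonyls and oxylipins, had 5 of 7 tested members higher, with a median of 3.17. OPR1 (AT1G76680), a reductase of electrophilic oxylipins, stood at 527, 453 and 441 CPM in SHAM and 32.6, 59.96 and 84.8 CPM in water (3.24 ± 0.28, adjusted p = 5.05e-06). Its close relative OPR2 (AT1G76690) stood at 74.5, 68.0 and 63.3 CPM in SHAM and 15.6, 16.1 and 13.5 CPM in water (2.44 ± 0.24, adjusted p = 1.68e-05). CYP81D11 (AT3G28740), a cytochrome P450 induced by many chemicals, stood at 33.9, 38.7 and 58.3 CPM in SHAM and 2.23, 1.93 and 1.38 CPM in water (4.88 ± 0.38, adjusted p = 2.89e-06). None of the 3 genes overlapped between the groups. The glutathione transferases of the tau class, which conjugate foreign compounds to glutathione, had 6 of 8 tested members higher, with a median of 1.57. GSTU7 (AT2G29420) stood at 95.9, 73.2 and 130.2 CPM in SHAM and 14.8, 16.8 and 17.1 CPM in water (2.85 ± 0.33, adjusted p = 5.16e-05), and GSTU24 (AT1G17170), with 0 counts in water, was at least 10.5-fold higher.

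The phi class of glutathione transferases did not move as a group, with 2 of 8 tested members higher, 1 lower and a median of 0.06. Over all tested genes 9.35% were higher and 7.49% lower. GSTF8 (AT2G47730), a stress marker of chemical treatment, stood at 491, 585 and 691 CPM in SHAM and 164, 262 and 326 CPM in water (1.48 ± 0.27, adjusted p = 0.00209). GSTF2 (AT4G02520) went the other way, at 37.2, 39.7 and 32.3 CPM in SHAM and 83.8, 125 and 144 CPM in water, and fell by 1.45 ± 0.27 (adjusted p = 0.00209). GSTF6 (AT1G02930) was uneven in SHAM, at 30.5, 24.1 and 7.74 CPM, against 5.19, 5.80 and 3.31 CPM in water (2.39 ± 0.68, adjusted p = 0.028), and shares sequence with its neighbour GSTF7. Leaving out SHAM replicate 3 kept its call, and leaving out any other library ended it (adjusted p = 0.0576, 0.0577 and 0.122 without water replicates 1, 2 and 3, 0.0786 and 0.0911 without SHAM replicates 1 and 2), and 1 phi member was then called higher.

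Stress transcription factors of the NAC family had 4 of 6 tested members higher, with a median of 2.24. ANAC102 (AT5G63790), which responds to chloroplast and low-oxygen stress, stood at 278, 164 and 223 CPM in SHAM and 21.5, 27.1 and 27.1 CPM in water (3.36 ± 0.24, adjusted p = 1.76e-06). ANAC032 (AT1G77450) (3.41 ± 0.29, adjusted p = 3.92e-06), ATAF1 (AT1G01720) (2.32 ± 0.21, adjusted p = 8.29e-06) and ATAF2 (AT5G08790) (2.16 ± 0.22, adjusted p = 2.18e-05) are its nearest relatives and rose with it. The zinc finger, BAP and SIB genes that mark early stress had 6 of 8 tested members higher, with a median of 1.58. SIB1 (AT3G56710), which binds plastid sigma factors and WRKY33, stood at 21.4, 16.2 and 11.8 CPM in SHAM and 1.48, 5.16 and 1.104 CPM in water (3.02 ± 0.51, adjusted p = 0.000973). BAP1 (AT3G61190), a membrane protein that restrains cell death, stood at 59.8, 60.1 and 35.5 CPM in SHAM and 12.6, 12.2 and 9.39 CPM in water (2.45 ± 0.38, adjusted p = 0.000496). The ethylene response factors of groups IX and X had 5 of 14 tested members higher, among them ABR1 (AT5G64750), at 18.1, 14.6 and 12.3 CPM in SHAM and 2.23, 0 and 0 CPM in water, a ratio of summed levels of 30.9 with a 95% counting interval of 10.2 to 153.

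**Figure D2:**
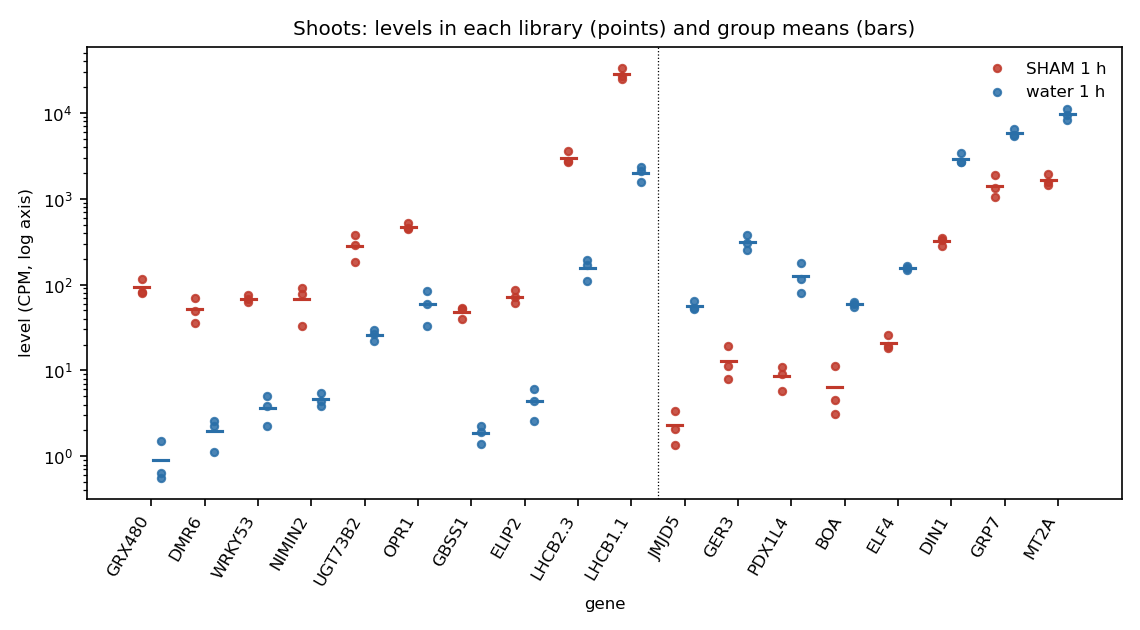
Levels of 18 genes in each SHAM 1 h and water 1 h shoot library (points) with the group means (bars), in CPM on a log axis. The 10 genes left of the dotted line are higher in SHAM and the 8 right of it lower, and for each of them the 3 SHAM points lie apart from the 3 water points.

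The known targets of SHAM were then read. AOX1A (AT3G22370), the main alternative oxidase, stood at 58.7, 74.8 and 74.2 CPM in SHAM and 12.6, 29.0 and 25.9 CPM in water, with no overlap, and rose by 1.85 ± 0.35, adjusted p = 0.00212. The other enzymes of the alternative electron path are NAD(P)H dehydrogenases that bypass the first proton-pumping complex. NDA1 (AT1G07180), an internal enzyme induced by light, stood at 47.4, 59.1 and 74.2 CPM in SHAM and 11.1, 5.80 and 3.04 CPM in water (3.55 ± 0.39, adjusted p = 3.84e-05). NDB2 (AT4G05020), an external enzyme that often moves with AOX1A, stood at 19.2, 24.1 and 25.5 CPM in SHAM and 5.19, 3.87 and 5.25 CPM in water (2.51 ± 0.35, adjusted p = 0.00024). The other members tested, NDA2 (-0.33 ± 0.35, adjusted p = 0.72) and NDB1 (-0.39 ± 0.35, adjusted p = 0.505), did not pass, so 3 of 5 were higher. Genes that respond to signals from impaired mitochondria had 4 of 5 tested members higher, among them AOX1A, NDB2 and TIM17-1 (AT1G20350), an import pore subunit (1.61 ± 0.33, adjusted p = 0.00424; adjusted p = 0.134 in a fit of all 24 libraries). The lower one was CRF6 (AT3G61630), a cytokinin response factor, which fell by 0.93 ± 0.25 (adjusted p = 0.0203) and lost its call without water replicate 1 (adjusted p = 0.0541), water replicate 2 (adjusted p = 0.0679) or SHAM replicate 2 (adjusted p = 0.11).

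Of the 6 lipoxygenases, 5 were tested and 2 were higher, with a median of 1.19. LOX3 (AT1G17420), a lipoxygenase of jasmonate synthesis, stood at 20.3, 28.2 and 28.2 CPM in SHAM and 7.42, 5.16 and 7.18 CPM in water (2.21 ± 0.37, adjusted p = 0.000877). LOX4 (AT1G72520), its nearest relative, stood at 5.64, 11.5 and 6.83 CPM in SHAM and 0.742, 3.22 and 1.38 CPM in water (2.46 ± 0.61, adjusted p = 0.0133), a call lost without water replicate 3 (adjusted p = 0.0763) or SHAM replicate 2 (adjusted p = 0.0776). LOX2 (AT3G45140), the abundant chloroplast lipoxygenase, stood at 29.3, 71.6 and 96.5 CPM in SHAM and 13.3, 37.4 and 51.9 CPM in water, where the groups overlapped (1.19 ± 0.44, adjusted p = 0.0839). LOX1 (AT1G55020), a lipoxygenase outside the jasmonate path, stood at 14.7, 26.7 and 41.0 CPM in SHAM and 17.1, 14.2 and 21.3 CPM in water (0.92 ± 0.33, adjusted p = 0.0706). LOX6 (AT1G67560) had a log2 fold change of -0.66 ± 0.60 (adjusted p = 0.496), and LOX5 (AT3G22400) was too low to test. Without SHAM replicate 1, 4 of the lipoxygenases were called higher.

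Downstream of the lipoxygenases, 4 of 9 tested genes of jasmonate synthesis were higher, with a median of 0.30. AOC3 (AT3G25780), an allene oxide cyclase, stood at 50.8, 29.8 and 25.5 CPM in SHAM and 2.97, 5.80 and 4.14 CPM in water (3.25 ± 0.43, adjusted p = 0.000165). OPR3 (AT2G06050), the reductase that commits the pathway to jasmonate, stood at 66.6, 63.8 and 52.4 CPM in SHAM and 12.6, 18.1 and 29.8 CPM in water (1.81 ± 0.29, adjusted p = 0.000639). The allene oxide synthase AOS (AT5G42650) rose by 1.18 ± 0.23, adjusted p = 0.00255. Last came OPCL1 (AT1G20510), a peroxisomal ligase of the pathway (1.47 ± 0.36, adjusted p = 0.0114), which lost its call without water replicate 3 (adjusted p = 0.0548). Jasmonate response genes had 4 of 10 tested members higher, and 2 without water replicate 2. The enzymes that oxidise the active hormone led them: CYP94C1 (AT2G27690) stood at 39.5, 32.9 and 26.9 CPM in SHAM and 4.45, 5.80 and 6.07 CPM in water (2.81 ± 0.33, adjusted p = 5.5e-05). CYP94B3 (AT3G48520) stood at 24.8, 7.84 and 5.92 CPM in SHAM and 1.48, 0 and 0.828 CPM in water (4.16 ± 0.76, adjusted p = 0.00182). The master regulator MYC2 (AT1G32640) had a log2 fold change of -0.32 ± 0.35 (adjusted p = 0.574).

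Transcripts of the photosynthetic antenna were among the most abundant that rose, and its genes differed widely in how far. LHCB1.1 (AT1G29920), a chlorophyll-binding protein of the main antenna of photosystem II, stood at 33756, 26606 and 24869 CPM in SHAM shoots, against 2363, 2089.6 and 1585 CPM in water shoots. All SHAM values lay more than an order of magnitude above water, and it rose by 4.05 ± 0.30, adjusted p = 1.97e-06. LHCB2.3 (AT3G27690) stood at 2645, 3627 and 2787 CPM in SHAM and 109, 168 and 193 CPM in water (4.52 ± 0.28, adjusted p = 1.25e-06). LHCB2.1 (AT2G05100) stood at 2875, 3854 and 3107 CPM in SHAM and 137, 174 and 242 CPM in water (4.41 ± 0.31, adjusted p = 1.76e-06). The LHCB1 and the LHCB2 genes are near-identical copies whose reads may be split unevenly, so their sums are safer than the single genes. LHCB2.1 to LHCB2.3 together stood at 8724 ± 1272 CPM in SHAM and 503 ± 146 CPM in water (SD, n = 3 each), 17.35 times as much. LHCB1.1 to LHCB1.5 together stood at 103780 ± 6464 CPM in SHAM and 70695 ± 8275 CPM in water (SD, n = 3 each), 1.47 times as much. Of the 9 genes of this antenna, all tested, 6 were higher, with a median of 1.39. LHCB1.3 (0.17 ± 0.24), LHCB1.4 (-0.01 ± 0.19) and LHCB1.5 (0.38 ± 0.19) did not pass (adjusted p = 0.693, 0.977 and 0.191).

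The minor antenna proteins and the antenna of photosystem I had 5 of 12 tested members higher and 1 lower, with a median of 0.63. LHCB6 (AT1G15820) stood at 12955, 13101 and 15790.0 CPM in SHAM and 4524, 5098 and 5245 CPM in water (1.73 ± 0.18, adjusted p = 2.46e-05), and LHCA4 (AT3G47470) at 9679, 10826 and 11723 CPM in SHAM and 3719, 4596 and 4372 CPM in water (1.58 ± 0.18, adjusted p = 4.16e-05). LHCA6 (AT1G19150), which links photosystem I to the chloroplast NADH dehydrogenase-like complex, went the other way, at 46.3, 44.4 and 40.1 CPM in SHAM and 103, 119.9 and 158 CPM in water, and fell by 1.298 ± 0.26 (adjusted p = 0.00311). Subunits of the photosystems and of electron transport had 11 of 31 tested members higher, with a median of 0.54, among them the plastocyanin PETE1 (AT1G76100) (1.52 ± 0.20, adjusted p = 0.000139) and PSBS (AT1G44575), which dissipates excess light (1.11 ± 0.16, adjusted p = 0.000375). That count was 6, 7 and 4 without water replicates 1, 2 and 3, and 4 without SHAM replicate 2. Genes of carbon fixation were split, with 3 of 19 higher and 3 lower, and 0 called either way in a fit of all 24 libraries. Over all tested genes 9.35% were higher and 7.49% lower. CP12-2 (AT3G62410), a small inhibitor of the cycle, stood at 807, 831 and 513 CPM in SHAM and 3009.7, 3086 and 2275 CPM in water, and fell by 1.72 ± 0.29 (adjusted p = 0.00101). The antenna genes took 18.28 to 19.2% of all counts in SHAM and 10.93 to 12.85% in water. Fitted with all 24 libraries, roots included, the main antenna had 3 members called higher, the 5 higher members of the minor and photosystem I antenna and the 11 photosystem subunits lost their calls, and the adjusted p was 0.0806 for LHCB1.1, 0.123 for LHCB6, 0.142 for LHCA4, 0.181 for PETE1, 0.521 for PSBS and 0.0586 for CP12-2. That fit includes root SHAM replicate 1, which held 4.46% of its counts from photosynthesis genes, and its part in this was not tested. Scaled by library size alone, 7 photosystem subunits were called higher.

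**Figure D3:**
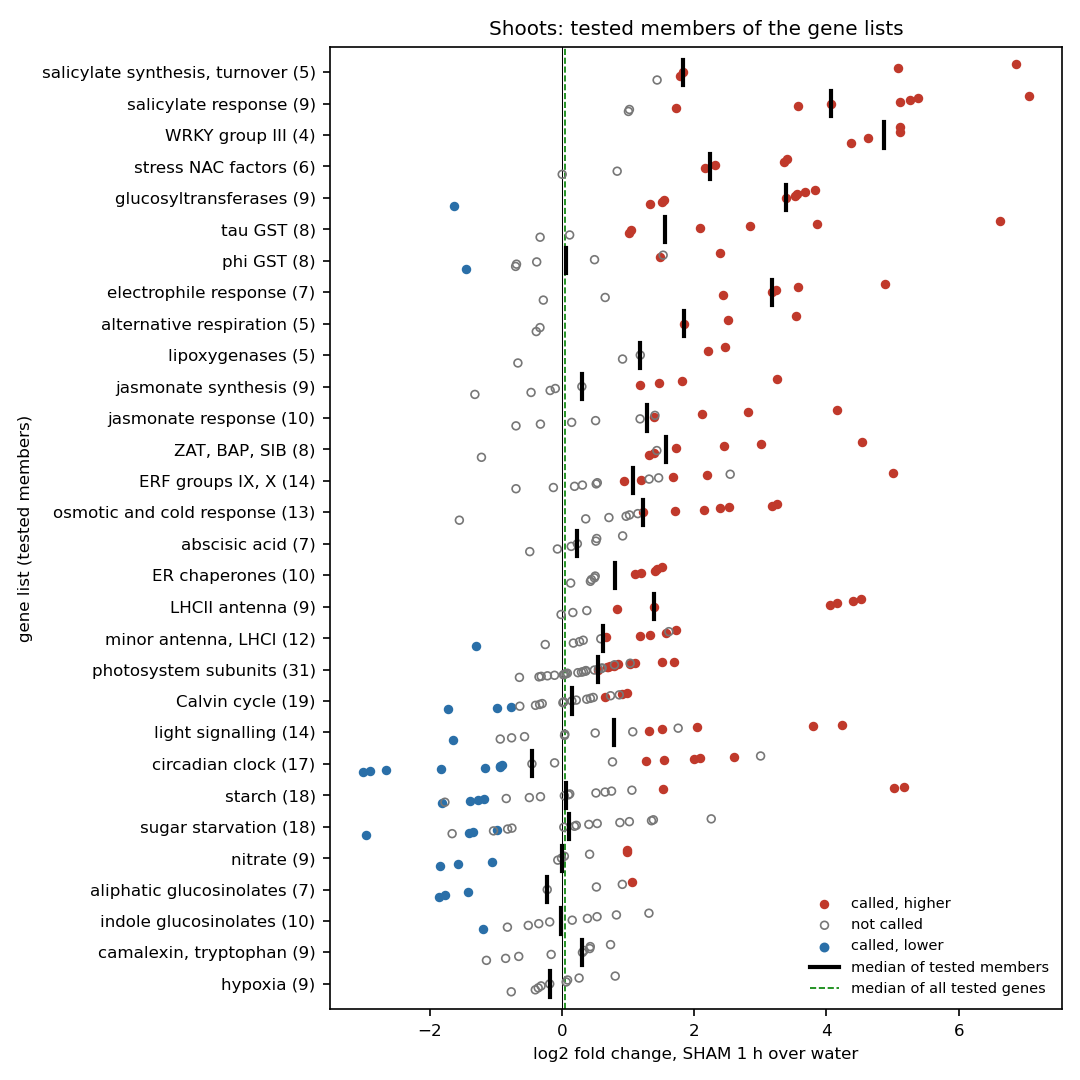
Log2 fold change, SHAM 1 h over water, of each tested member of 30 gene lists in shoots, with the number tested in brackets. Filled red and blue points are called higher and lower, open points are not called, black bars are list medians and the dashed line is the median of all tested genes, 0.04.

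Light and growth genes included some of the sharpest changes. The early light-induced proteins bind free chlorophyll when antennae are built or damaged. ELIP2 (AT4G14690) stood at 61.0, 85.2 and 71.0 CPM in SHAM and 4.45, 2.58 and 6.07 CPM in water (4.23 ± 0.31, adjusted p = 1.88e-06), and ELIP1 (AT3G22840) at 50.8, 61.7 and 41.0 CPM in SHAM and 5.19, 3.22 and 4.69 CPM in water (3.797 ± 0.34, adjusted p = 5.89e-06). HY5 (AT5G11260), a transcription factor that promotes light responses, was the 1 lower member, at 37.2, 31.9 and 35.1 CPM in SHAM and 171, 102 and 112 CPM in water, and fell by 1.65 ± 0.32 (adjusted p = 0.0026). PIF5 (AT3G59060), which promotes growth in shade and darkness, stood at 179, 195 and 270.4 CPM in SHAM and 50.4, 67.7 and 64.6 CPM in water (2.05 ± 0.21, adjusted p = 1.7e-05). In all, 5 of 14 tested light signalling genes were higher and 1 lower, and 3 were higher in the fit of all 24 libraries. IAA19 (AT3G15540), an auxin response gene of growing shoots, stood at 42.9, 29.8 and 25.5 CPM in SHAM and 2.23, 1.93 and 2.76 CPM in water (3.99 ± 0.38, adjusted p = 1.17e-05). CHS (AT5G13930), the first enzyme of flavonoid synthesis, stood at 597, 471 and 345 CPM in SHAM and 78.6, 89.6 and 96.9 CPM in water (2.66 ± 0.26, adjusted p = 1.43e-05). None of these genes overlapped between the groups.

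Clock genes moved in both directions, with 5 of 17 tested members higher and 8 lower and a median of -0.45. ELF4 (AT2G40080), a part of the evening complex, stood at 19.2, 18.3 and 25.5 CPM in SHAM and 156, 164 and 148 CPM in water, and fell by 2.66 ± 0.25 (adjusted p = 1.07e-05). BOA (AT5G59570), a relative of the evening complex protein LUX, stood at 4.52, 3.14 and 11.4 CPM in SHAM and 63.0, 58.7 and 54.7 CPM in water, and fell by 2.91 ± 0.41 (adjusted p = 0.000244). GRP7 (AT2G21660), an RNA-binding protein under clock control, stood at 1051, 1316 and 1895 CPM in SHAM and 6571, 5536 and 5414 CPM in water, and fell by 1.82 ± 0.21 (adjusted p = 5.41e-05). JMJD5 (AT3G20810), a jumonji protein that takes part in the clock and was not on the list, stood at 3.39, 2.09 and 1.37 CPM in SHAM and 53.4, 51.6 and 64.6 CPM in water (-4.51 ± 0.56, adjusted p = 0.000104). All 3 SHAM values lay below all 3 water values for each of these genes, which for JMJD5 was a condition of its choice. Among the higher members were CDF3 (AT3G47500), a repressor of flowering genes (2.08 ± 0.29, adjusted p = 0.000235), and COL1 (AT5G15850), a relative of the flowering regulator CONSTANS (2.603 ± 0.40, adjusted p = 0.000492). Without water replicate 2 the list had 3 higher and 5 lower, without SHAM replicate 2 it had 5 lower, and scaled by library size alone 3 higher.

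Genes of starch moved in both directions. GBSS1 (AT1G32900), the granule-bound synthase that makes amylose, stood at 39.5, 51.8 and 53.3 CPM in SHAM and 2.23, 1.93 and 1.38 CPM in water (5.03 ± 0.38, adjusted p = 2.26e-06). BAM3 (AT4G17090), the main beta-amylase of starch breakdown in leaves, stood at 46.3, 44.4 and 71.5 CPM in SHAM and 237, 215 and 218 CPM in water, and fell by 1.81 ± 0.26 (adjusted p = 0.000281). GWD1 (AT1G10760), which phosphorylates starch to open it for breakdown, stood at 20.3, 30.3 and 43.7 CPM in SHAM and 72.7, 86.4 and 113 CPM in water, and fell by 1.26 ± 0.26 (adjusted p = 0.00408). Other genes of the beta-amylase family were higher, and whether their products act in starch breakdown was not tested. BAM9 (AT5G18670) stood at 30.5, 45.5 and 59.2 CPM in SHAM and 20.02, 15.5 and 20.2 CPM in water (1.54 ± 0.26, adjusted p = 0.000944), a call lost with all 24 libraries fitted (adjusted p = 0.0504). BAM5 (AT4G15210) stood at 6.77, 6.27 and 5.46 CPM in SHAM and 0, 0 and 0.276 CPM in water, a summed level 39.2 times that in water, with a 95% counting interval of 6.51 to 1598. In all, 3 of 18 tested starch genes were higher and 4 lower, with a median of 0.07, where 9.35% of all tested genes were higher and 7.49% lower. Of the genes induced by sugar starvation or darkness, 4 of 18 tested were lower, with a median over the list of 0.11, and 7 were lower when scaled by library size alone. By edgeR 0 of them were higher, with 5 higher at an unadjusted p under 0.05, while DESeq2 and edgeR with no filter on low counts each called 2 higher, and edgeR 1 without SHAM replicate 3 or water replicate 1. DIN1 (AT4G35770), a dark-induced and senescence-associated gene, stood at 279, 353 and 331 CPM in SHAM and 2650.0, 3399.7 and 2697 CPM in water, and fell by 2.95 ± 0.32 (adjusted p = 2.9e-05). The dormancy-associated DRM1 (AT1G28330) (-1.40 ± 0.25, adjusted p = 0.00176) and the glutamate dehydrogenase GDH1 (AT5G18170) (-1.34 ± 0.27, adjusted p = 0.00342) fell with it. Another member, DIN6 (AT3G47340), an asparagine synthetase, had a log2 fold change of 0.19 ± 0.34 (adjusted p = 0.751).

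The largest decreases were of genes with varied roles. AT5G23240, a DNAJ chaperone domain protein, stood at 1.13, 0.523 and 0.911 CPM in SHAM and 27.4, 41.3 and 32.3 CPM in water, and fell by 5.08 ± 0.48 (adjusted p = 1.07e-05). GER3 (AT5G20630), a cell-wall protein of the germin-like family, stood at 19.2, 7.84 and 11.4 CPM in SHAM and 254, 305 and 377 CPM in water, and fell by 4.45 ± 0.40 (adjusted p = 6.38e-06). The amino acid transporter family member UMAMIT47 (AT3G28080) stood at 0, 1.57 and 0.911 CPM in SHAM and 17.8, 19.99 and 26.8 CPM in water (-4.15 ± 0.46, adjusted p = 3.88e-05). In each of these 3 genes every SHAM library lay far below every water library, but they were picked among genes without overlap. PDX1L4 (AT2G38210), a protein like the vitamin B6 synthase PDX1, stood at 9.03, 5.75 and 10.9 CPM in SHAM and 179, 115 and 79.0 CPM in water (-3.64 ± 0.53, adjusted p = 0.000348). HYR1 (AT3G21760), a glucosyltransferase (-3.16 ± 0.28, adjusted p = 5.49e-06), and CGA1 (AT4G26150), a GATA factor that promotes greening (-3.13 ± 0.46, adjusted p = 0.000329), also fell. Among abundant transcripts, MT2A (AT3G09390), a metallothionein, stood at 1935, 1568 and 1446 CPM in SHAM and 11137, 9324 and 8356 CPM in water, and fell by 2.31 ± 0.37 (adjusted p = 0.000662). The abundant AT5G02160, of unknown function, stood at 1165, 1116 and 1251 CPM in SHAM and 5984, 5790.4 and 4481 CPM in water (-1.98 ± 0.26, adjusted p = 0.000152).

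Genes of osmotic and cold stress had 7 of 13 tested members higher, with a median of 1.23. ERD10 (AT1G20450), a dehydrin, stood at 816, 589.8 and 468 CPM in SHAM and 72.7, 74.8 and 86.1 CPM in water (3.25 ± 0.26, adjusted p = 3.19e-06). The desiccation-response gene RD29A (AT5G52310) stood at 163, 221 and 225 CPM in SHAM and 17.1, 29.0 and 32.6 CPM in water (3.18 ± 0.39, adjusted p = 8.69e-05). The dehydrin LTI30 (AT3G50970) rose as well (2.53 ± 0.20, adjusted p = 3.27e-06). Of 7 tested genes of abscisic acid signalling, the hormone that drives many of these genes, edgeR called 0, with 1 at an unadjusted p under 0.05 and 0 called by DESeq2. Chaperones of the endoplasmic reticulum had 5 of 10 tested members higher, with CNX1 (AT5G61790), a calnexin (1.43 ± 0.23, adjusted p = 0.000772), and BIP2 (AT5G42020) (1.41 ± 0.22, adjusted p = 0.000613), whose reads may be shared with the near-identical BIP1.

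Genes of metal and nitrogen supply were called in both directions, where 9.35% of all tested genes were higher and 7.49% lower. PYE (AT3G47640), a regulator of the iron deficiency response, stood at 22.6, 12.03 and 9.56 CPM in SHAM and 3.71, 5.16 and 4.42 CPM in water (1.91 ± 0.44, adjusted p = 0.00803), and was the 1 tested of its list. Of that list 3 were called higher without SHAM replicate 3, with DESeq2 and with no filter on low counts, and 2 with all 24 libraries fitted. ZIF1 (AT5G13740), which loads a zinc and iron chelator into the vacuole, stood at 41.8, 61.2 and 59.2 CPM in SHAM and 8.16, 8.38 and 11.04 CPM in water (2.79 ± 0.33, adjusted p = 5.81e-05). YSL1 (AT4G24120), a transporter of metal chelates, stood at 3.39, 6.27 and 9.11 CPM in SHAM and 27.4, 23.2 and 39.8 CPM in water, and fell by 1.93 ± 0.31 (adjusted p = 0.000704). The iron store FER1 (AT5G01600) stood at 532, 456 and 361 CPM in SHAM and 399, 425 and 571 CPM in water, and the groups overlapped (0.21 ± 0.22, adjusted p = 0.564). Of 6 tested iron storage and iron-sulfur genes, 1 was higher. NEET (AT5G51720), an iron-sulfur protein of organelles, stood at 1249.5, 789.5 and 1032 CPM in SHAM and 235, 175 and 119 CPM in water (2.76 ± 0.40, adjusted p = 0.000329). Of 9 tested nitrate genes, 2 were higher and 3 lower, and 1 lower without water replicate 3 or SHAM replicate 2. The number higher was 0 without water replicate 2 or scaled by library size alone, and 1 with all 24 libraries fitted. The nitrate transporter and sensor NRT1.1 (AT1G12110) stood at 92.6, 119.7 and 111 CPM in SHAM and 357, 447 and 573 CPM in water, and fell by 1.83 ± 0.24 (adjusted p = 0.00016). The nitrate reductase NIA1 (AT1G77760) fell by 1.58 ± 0.38 (adjusted p = 0.0109), a call lost without water replicate 3 (adjusted p = 0.0528) or SHAM replicate 2 (adjusted p = 0.0547).

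The same water libraries served for shoots after 2 h and 3 h of SHAM, so the 3 comparisons share their controls and their values are only set side by side. At 2 h, 1357 genes were called (15.8%), 718 higher (8.38%) and 639 lower (7.46%). At 3 h, 770 were called (8.98%), 540 higher (6.3%) and 230 lower (2.68%). Several salicylate and detoxification genes were called higher at each time. GRX480 had log2 fold changes of 7.06 at 1 h, 6.74 at 2 h and 6.71 at 3 h, and UGT73B2 had log2 fold changes of 3.67, 3.17 and 4.41. The list medians at 1 h, 2 h and 3 h were 4.06, 3.09 and 3.89 for salicylate response and 3.17, 2.75 and 3.3 for the electrophile response. The median log2 fold change of the main antenna genes was 1.39 at 1 h, 1.3 at 2 h and 0.0989 at 3 h. LHCB2.3 had log2 fold changes of 4.52, 3.32 and 0.10, and its CPM at 3 h were 218, 152 and 129. GBSS1 had log2 fold changes of 5.03, 3.69 and 0.91, and ERD10 of 3.25, 1.37 and -0.41. Among genes that were lower at 1 h, ELF4 had log2 fold changes of -2.66, -0.99 and 0.21, and DIN1 of -2.95, -0.26 and -0.29. At 2 h and 3 h the time in solution and any change of clock time cannot be told apart from SHAM, because water was sampled at 1 h only.

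**Figure D4:**
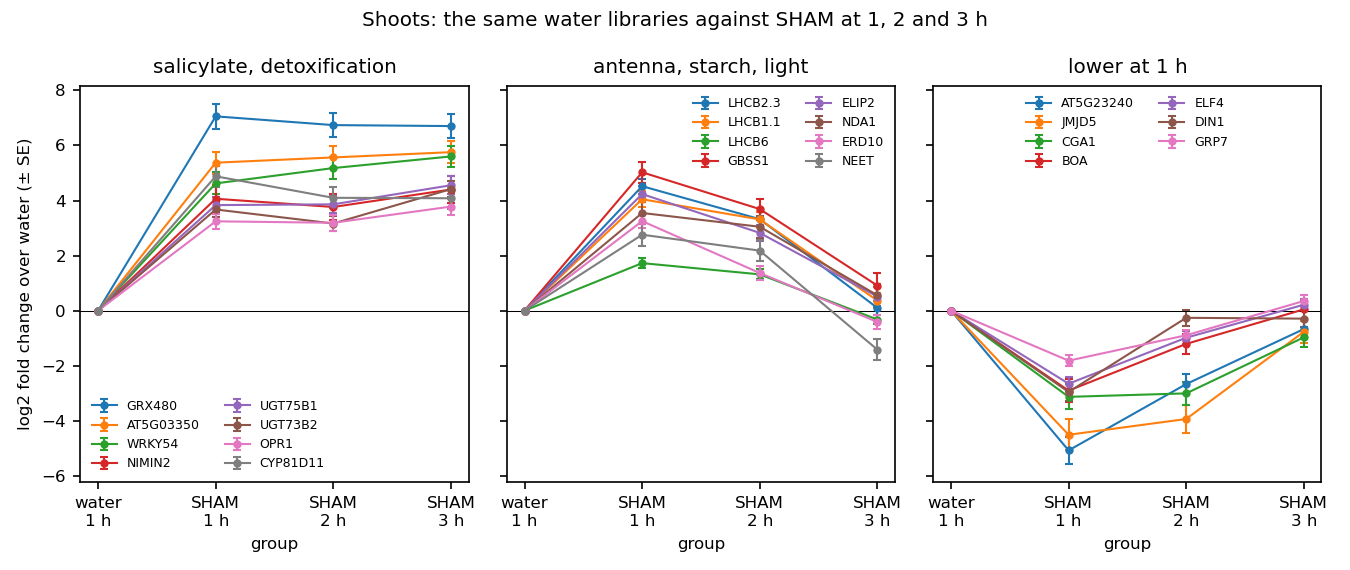
Log2 fold change over the 3 shoot water libraries (± SE) for 23 genes after 1, 2 and 3 h of SHAM, with water set at 0. The genes of salicylate response and detoxification stay high to 3 h, while the antenna, starch and light genes and the genes lower at 1 h lie closer to water at 3 h.

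Set directly against SHAM 1 h, SHAM 3 h gave a test of this change that shares the SHAM 1 h libraries with the main comparison and was added after the data were seen. It called 1651 genes (19.3%), 849 higher (9.91%) and 802 lower (9.36%) at 3 h. LHCB2.3 stood at 218, 152 and 129 CPM at 3 h and 2645, 3627 and 2787 CPM at 1 h, and fell by 4.42 ± 0.28 (adjusted p = 8.07e-07). GBSS1 stood at 4.73, 2.45 and 2.22 CPM at 3 h and 39.5, 51.8 and 53.3 CPM at 1 h, and fell by 4.12 ± 0.34 (adjusted p = 6.17e-06). These antenna and starch transcripts were thus lower at 3 h, while some clock and dark-response transcripts were higher. ELF4 rose, at 191, 174 and 179 CPM at 3 h and 19.2, 18.3 and 25.5 CPM at 1 h (2.87 ± 0.25, adjusted p = 9.26e-06), and so did DIN1, at 2268, 2471 and 2434 CPM at 3 h and 279, 353 and 331 CPM at 1 h (2.66 ± 0.31, adjusted p = 9.29e-05). GRX480 did not pass this test, with a difference of -0.35 ± 0.28 (adjusted p = 0.388). NEET fell by 4.18 ± 0.43 (adjusted p = 3.28e-05), to 52.4, 56.3 and 90.4 CPM at 3 h, which is also below the 235, 175 and 119 CPM of water.

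Roots of seedlings treated in the same way were sequenced as separate libraries, and their 1 h comparison called 1302 of 10642 genes (12.2%), 746 higher (7.01%) and 556 lower (5.22%). Among the 7606 genes tested in both organs, 735 were higher in SHAM shoots and 658 in SHAM roots, and 236 in both, which is 32.1% of the shoot and 35.9% of the root genes. Over all 7606 genes, 8.65% were higher in SHAM roots. For decreases, 507 genes were lower in SHAM shoots and 230 in SHAM roots, and 30 in both, which is 5.92% and 13% of them. Of all 7606 genes, 3.02% were lower in SHAM roots. Whether the shoot and root effects differ was tested as an interaction over all 24 libraries, which called 694 of 11704 genes (5.93%), 231 with a higher (1.97%) and 463 with a lower (3.96%) fold change in shoots, against 272 and 339 with median-ratio size factors and 247 and 329 scaled by library size alone. The median difference over all genes was -0.153 with TMM and 0.00038 with median-ratio size factors. Of the genes higher in SHAM shoots, 126 (17.1%) had such a difference, and of those lower in SHAM shoots 184 (36.3%). The shoot calls and the interaction share the same shoot libraries, so the choice of genes itself raises these shares. Both were computed with TMM only. Root SHAM replicate 1 held 4.46% of counts from photosynthesis genes, against 0.239 to 0.291% in the other root SHAM libraries and 0.259 to 0.339% in root water. Its part in the differences was not tested beyond leaving it out, which left 618 calls and ended the call of 12 of the 47 named genes with a called difference. Leaving out other single libraries gave between 308 calls, without shoot water replicate 3, and 1125, without shoot SHAM replicate 3.

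Several genes that rose in shoots rose in roots as well, and for AOX1A, GRX480 and OPR1 the organs were not shown to differ. AOX1A stood at 146, 152 and 146 CPM in SHAM roots and 54.5, 18.5 and 53.1 CPM in water roots, and its difference, shoot minus root, was -0.28 ± 0.53 (adjusted p = 0.784). For GRX480 it was 1.26 ± 0.52 (adjusted p = 0.169), and for OPR1 -0.60 ± 0.41 (adjusted p = 0.39). UGT75B1 rose more in roots, at 267, 389 and 315 CPM in SHAM roots and 3.70, 3.48 and 4.25 CPM in water roots, and its difference was -2.88 ± 0.51, adjusted p = 0.00171. The clock genes ELF4 and BOA fell in shoots and did not pass in roots, at -0.48 ± 0.25, adjusted p = 0.199 and 0.79 ± 0.32, adjusted p = 0.105. ELF4 stood at 143, 174 and 204 CPM in SHAM roots and 313, 272 and 272 CPM in water roots, with a difference of -2.29 ± 0.36, adjusted p = 0.000578, and BOA had -3.79 ± 0.52, adjusted p = 0.000189. ELIP1 and WRKY53, from the light and defence groups, rose in shoots and did not pass in roots, where their groups overlapped, at 0.49 ± 0.28, adjusted p = 0.236 and 0.22 ± 0.58, adjusted p = 0.807. ELIP1 stood at 169, 108 and 151 CPM in SHAM roots and 120.0, 124 and 113 CPM in water roots, with a difference of 3.18 ± 0.43, adjusted p = 0.000189. WRKY53 stood at 11.04, 4.93 and 5.33 CPM in SHAM roots and 10.6, 1.16 and 7.96 CPM in water roots, with a difference of 4.07 ± 0.71, adjusted p = 0.00143.

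Some genes moved in opposite directions. FLOT1 (AT5G25250), a flotillin of membrane domains, stood at 29.3, 22.5 and 23.2 CPM in SHAM shoots and 5.93, 5.80 and 10.8 CPM in water shoots (1.90 ± 0.31, adjusted p = 0.000754), but at 3.40, 4.62 and 4.36 CPM in SHAM roots and 36.5, 38.3 and 38.8 CPM in water roots (-2.93 ± 0.84, adjusted p = 0.037). In a fit of all 24 libraries the shoot value of FLOT1 had an adjusted p of 0.0937. The reverse order was seen for genes that fell in shoots. PDX1L4 stood at 9.34, 13.6 and 10.7 CPM in SHAM roots and 2.11, 4.64 and 2.65 CPM in water roots (2.18 ± 0.56, adjusted p = 0.0236). DIN1 stood at 96.0, 15.71 and 35.4 CPM in SHAM roots and 6.34, 9.27 and 16.5 CPM in water roots (2.38 ± 0.71, adjusted p = 0.0417), where the groups overlapped, and its difference was -5.41 ± 0.82, adjusted p = 0.000353, or -4.44 without root SHAM replicate 1. AT5G07860, an acyltransferase gene, rose in both organs, but stood at 63.2, 93.6 and 133 CPM in SHAM shoots and 41.5, 43.2 and 58.0 CPM in water shoots, against 214, 461 and 255 CPM in SHAM roots and 9.52, 8.11 and 7.96 CPM in water roots, a difference of -4.26 ± 0.47, adjusted p = 2.36e-05. The peroxidase AT5G39580 stood at 28.2, 15.69 and 10.5 CPM in SHAM shoots and 5.19, 4.51 and 1.104 CPM in water shoots (2.69 ± 0.76, adjusted p = 0.0254), a call lost without water replicate 3 (adjusted p = 0.117) or SHAM replicates 1 (adjusted p = 0.0715) or 2 (adjusted p = 0.054), and it fell in roots (-2.74 ± 0.58, adjusted p = 0.00853).

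**Figure D5:**
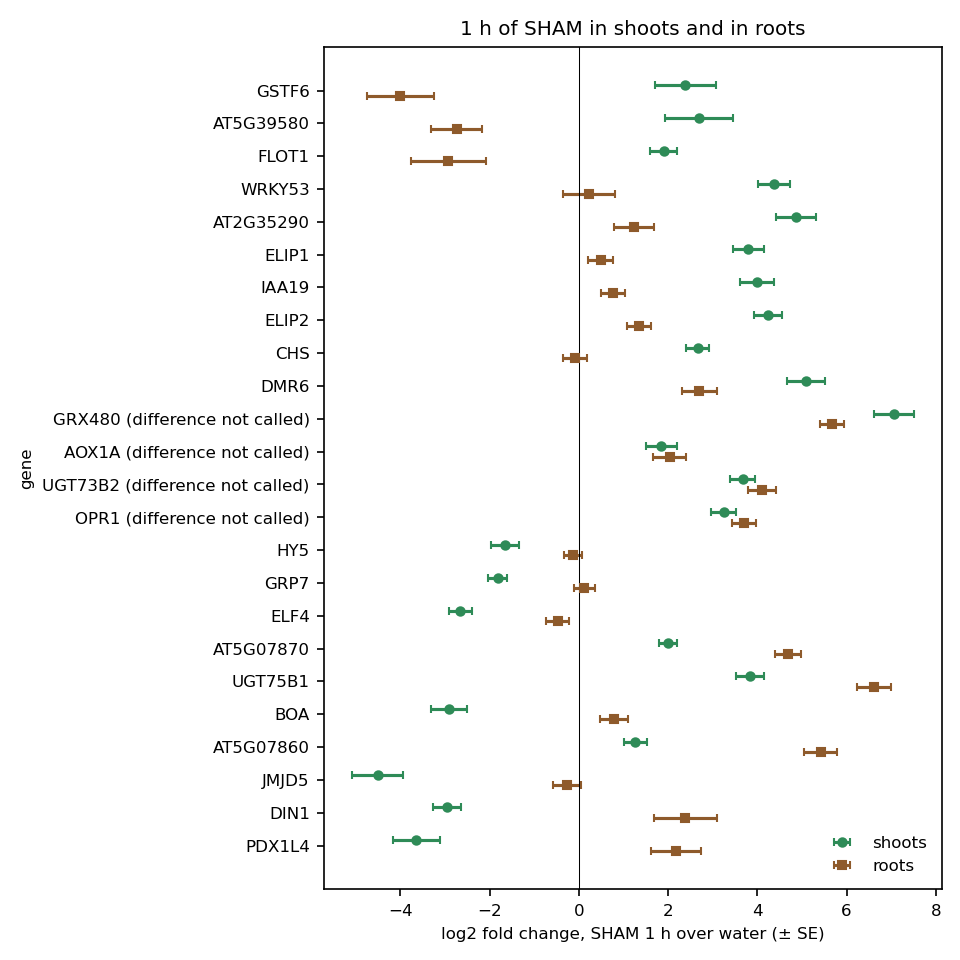
Log2 fold change (± SE), SHAM 1 h over water, in shoots (circles) and roots (squares), for 24 genes. All but the 4 marked ones have a called difference between organs; FLOT1, AT5G39580 and GSTF6 rise in shoots and fall in roots, and PDX1L4 and DIN1 do the reverse.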

How the data were processed

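Messenger RNA of Arabidopsis shoots and roots was counted by MARS-seq, a 3' end method, in 24 libraries. The deposited table holds raw counts per gene, made by the authors with bcl2fastq, cutadapt, STAR 2.4.2a and HTSeq, per the submitters' processing notes; the genome build and the strand setting are not given in the sources used here. The same table holds the authors' DESeq2 comparison as log2 fold changes and p-values, per the file headers. The authors' deposited table marks 996 genes, of which 924 were also called here, and its log2 fold changes are coded water over SHAM. Another 48 per-sample columns were not used.

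The 12 shoot libraries were fitted together with edgeR 4.0.16 in R 4.3.3 (quasi-likelihood, filterByExpr with a minimum count of 10 and a minimum total count of 15, TMM), and 4 group contrasts were tested with Benjamini-Hochberg adjustment over all genes. The difference between organs was an interaction over 24 libraries. CPM are counts scaled to the library total. Alternatives were other scalings, no filter, DESeq2 1.42.0, other sets of libraries, a replicate block, stricter calls and leaving out each library. The script was tested on simulated data. Counting intervals and the floor of 3 counts cover counting error only.

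Genes were named by rule: among called genes of at least 10 CPM without overlap between groups, the 12 highest and 12 lowest fold changes and the 6 most abundant each way; up to 4 called members of each list by smallest adjusted p; called members against their list's direction; AOX1A, the lipoxygenases and FER1; and the 6 highest and lowest organ differences. For the highest, lowest and most abundant genes, lack of overlap was thus a condition of choice and no further result. Other members named, called or not, were chosen after their values were seen. Members and lists were chosen with earlier results of these data known. List members low in water could be tested only through the SHAM libraries. List counts and medians are thus descriptions.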

Additional observations from a re-analysis of the deposited data

Results flagged for a closer look

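Each result in the next paragraphs was picked out because the log2 fold change after 1 h of SHAM differed between shoots and roots in edgeR's interaction test, given as shoot minus root. Groups of 3 libraries were not tested for single outlying samples. Of the 28 genes, 19 kept a called difference in every fit that left out 1 of the 12 libraries of the 4 groups, and 9 lost it in at least 1.

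Genes whose fold change was lower in shoots came largely from those that fell there. Among the clock and light genes the differences were -4.35 (adjusted p = 0.000353) for JMJD5, -3.79 (adjusted p = 0.000189) for BOA, -2.29 (adjusted p = 0.000578) for ELF4, -2.05 (adjusted p = 0.00393) for GRP7 and -1.63 (adjusted p = 0.00929) for HY5. The dark-induced gene DIN1 stood at -5.41 (adjusted p = 0.000353) and the PDX1-like gene PDX1L4 at -5.91 (adjusted p = 0.000177). The genes UGT75B1, at -2.88 (adjusted p = 0.00171), and the acyltransferase neighbours AT5G07860, at -4.26 (adjusted p = 2.36e-05), and AT5G07870, at -2.82 (adjusted p = 6.2e-05), rose in both organs and further in roots. The germin-like gene GER3 stood at -9.35 (adjusted p = 0.00253), the carbonic anhydrase CA2 at -6.50 (adjusted p = 0.0148), the plastid sigma factor SIG4 at -5.44 (adjusted p = 0.00589) and AT4G17245 at -6.12 (adjusted p = 0.0415). These 4 calls were lost without root SHAM replicate 1, which held 4.46% of its counts from photosynthesis genes, against 0.239 to 0.291% in the other root SHAM libraries. The adjusted p was then 1 for GER3, 0.531 for CA2, 0.185 for AT4G17245 and 0.0754 for SIG4. AT4G17245 lost its call in 8 of the 12 fits, and CA2 also without root water replicate 1 (adjusted p = 0.0582).

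Genes whose fold change was higher in shoots included light and growth genes, with 3.18 (adjusted p = 0.000189) for ELIP1, 2.77 (adjusted p = 0.000351) for ELIP2, 2.62 (adjusted p = 0.000586) for CHS and 3.10 (adjusted p = 0.000275) for IAA19. The starch synthase GBSS1 stood at 3.99 (adjusted p = 0.0328), a call lost in 6 of the 12 fits. Defence and stress genes were WRKY53 at 4.07 (adjusted p = 0.00143), the peroxidase AT5G39580 at 5.31 (adjusted p = 0.00193), the glutathione transferase GSTF6 at 6.24 (adjusted p = 0.000951), the flotillin FLOT1 at 4.69 (adjusted p = 0.00588) and AT2G35290 at 3.52 (adjusted p = 0.00193). The salicylate hydroxylase DMR6 stood at 2.24 (adjusted p = 0.0229), a call lost in 4 of the 12 fits. AT4G39670 stood at 6.76 (adjusted p = 0.00895), the beta-glucosidase BGLU22 at 6.63 (adjusted p = 0.0198) and the oxidase GulLO5 at 4.51 (adjusted p = 0.0402). These last 3 had 0 counts in the shoot water libraries, so their fitted differences depend on the prior count and are no bound. AT4G39670 lost its call without shoot water replicate 3 (adjusted p = 0.0545), BGLU22 without that library (adjusted p = 0.0945) or shoot SHAM replicate 1 (adjusted p = 0.0573), and GulLO5 in 11 of the 12 fits.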

How the results depend on the processing

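Scaled by library size alone, 991 genes were lower in SHAM shoots, against 642 with TMM. At an adjusted p under 0.01 the calls were 755, of which 454 higher and 301 lower. Leaving out 1 library at a time gave 897 to 1449 calls, 522 to 807 higher and 350 to 642 lower. For the difference between shoot and root, DESeq2 called 381 genes higher in shoots, against 231 with edgeR, and leaving out 1 library gave 308 to 1125 calls, 75 to 417 higher and 195 to 708 lower. FER1 reversed its sign scaled by library size alone, at -0.0521, with no call either way. The cause of these shifts was not tested. The other counts of these comparisons stayed within 1.5 times under the alternatives run that kept every library. Of the 173 named genes called at 1 h, 39 were not called in a fit of all 24 libraries, 15 scaled by library size alone, 10 with no filter on low counts and none with median-ratio size factors; DESeq2 called all 172 that it gave a value for. Of these 173 genes, 136 were called in all 6 fits that left out 1 of the 6 libraries.

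With a replicate block the shoot comparison gave 1188 calls, 673 higher and 515 lower, and the difference between organs 563 calls, 190 higher and 373 lower. After removing group means, SHAM 1 h and water shoot libraries of the same number correlated at 0.447, 0.0189 and 0.537. Those of different numbers correlated at -0.523 to 0.131. The main fit did not take the numbers as pairs, and whether they mark pairs was not tested. Under the block 10 of the 173 named genes lost their call, and the photosystem subunits had 6 called higher, against 11. Depth limits genes of few counts: 7613 genes of the table were not tested. A promoter motif search was planned and was not run.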

Other observations

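Other groups, here and in the next paragraph, held few called genes or none, where 9.35% of all tested genes were higher and 7.49% lower. Of 16 tested phenylpropanoid genes 4 were higher, among them the cinnamoyl-CoA reductase CCR1 (AT1G15950), at 113, 109.8 and 115 CPM in SHAM and 36.3, 28.4 and 43.1 CPM in water (1.89 ± 0.23, adjusted p = 7.8e-05), and the entry enzyme PAL1 (AT2G37040) (1.62 ± 0.25, adjusted p = 0.000458). Of 14 tested sulfur and glutathione genes 3 were higher, and 1 with all 24 libraries fitted. Among the 3 was SERAT2;1 (AT1G55920), an enzyme of cysteine synthesis, at 195, 221 and 306 CPM in SHAM and 33.4, 23.2 and 39.2 CPM in water (3.15 ± 0.26, adjusted p = 3.27e-06). Aliphatic glucosinolate genes had 3 of 7 tested members lower and 1 higher, and 1 lower without water replicate 3 or SHAM replicate 2. Their regulator MYB28 (AT5G61420) stood at 5.64, 4.18 and 7.74 CPM in SHAM and 21.5, 19.3 and 30.4 CPM in water, and fell by 1.77 ± 0.31 (adjusted p = 0.0013), while the cytochrome P450 CYP83A1 (AT4G13770) rose (1.07 ± 0.23, adjusted p = 0.00607).

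Plasma membrane aquaporins had 3 of 11 tested members higher and 1 lower, PIP2;2 (AT2G37170), at 46.3, 56.99 and 73.8 CPM in SHAM and 197, 203 and 195 CPM in water (-1.51 ± 0.19, adjusted p = 0.000115), whose reads may be shared with its close copy PIP2;3. The number higher was 1 without SHAM replicate 1 or 2 or water replicate 2 or 3, scaled by library size alone, and with all 24 libraries fitted. Of 9 tested hypoxia genes edgeR called 0, with 0 at an unadjusted p under 0.05 and 0 called by DESeq2. Of 9 tested camalexin and tryptophan genes edgeR called 0, with 2 at an unadjusted p under 0.05 and 0 called by DESeq2. ATCG00260, a chloroplast gene, had 1035.8 CPM in SHAM replicate 2, against 2.26 and 0 CPM in SHAM replicates 1 and 3 and 5.93, 6.45 and 0.276 CPM in water (adjusted p = 0.161), and was chosen after its values were seen.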
